A study of Arabidopsis thaliana with 10 samples.

Results

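The glutathione S-transferase (GST) family was followed through 43 genes of Arabidopsis thaliana, out of 33602 genes in the count table. The members were taken by locus identifier, and the family was chosen with earlier results of these data known. They comprised 24 tau genes (GSTU), 11 phi genes (GSTF), 3 dehydroascorbate reductases (DHAR), 3 lambda genes (GSTL), 1 zeta gene (GSTZ1) and 1 theta gene (GSTT1). TRANSPARENT TESTA 19, a phi class gene of the anthocyanin pathway, was not among them. The list was not checked to hold every other GST gene, and below "the family" means these 43 genes. RNA came from whole Col-0 background seedlings with 4 open true leaves, in 5 groups of 2 libraries. The groups were DIF-OX2 on 10 µM Dex (dexamethasone) at 12 days after germination, dal-2 at 20 and 21 days without Dex, DIF-OX2 without Dex at 12 days, wild-type Col-0 on 10 µM Dex at 12 days, and Col-0 without Dex at 12 days. All groups received 0.1% ethanol, with 16 h of light and 8 h of dark. From its title, the study concerns plastid retrograde signalling and the degradation of DIFFERENTIATION AND GREENING-LIKE (DAL) by an SCF complex containing DIF. The promoter driving DIF-OX2, the number of lines behind it and the pooling of plants are not stated in the sources used here, and the labels do not say whether the libraries of a group had separate cultures as sources, so p-values measure the spread between libraries. Because dal-2 was sampled later than Col-0, genotype and age cannot be told apart in that comparison.

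GSTs join the thiol of the tripeptide glutathione to reactive small molecules, and the conjugates are carried into the vacuole by ABCC transporters. The tau and phi classes are the large plant classes and hold most of the enzymes known for conjugating herbicides and other foreign compounds. Lambda and DHAR enzymes carry a cysteine in the active site and act in thiol transfer and in the recycling of ascorbate, the zeta enzyme acts in tyrosine breakdown, and theta enzymes have glutathione peroxidase activity. Many tau and phi genes lie in tandem arrays and are known to respond to stress hormones, pathogens and oxidants. TGA transcription factors, which bind TGACG sequences, are known activators of several of them.

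The libraries held 8805568 to 16556322 counts, of which the 43 members took 0.278% to 0.532%. Levels are given as CPM, counts scaled to library size with TMM factors, and changes are log2 fold changes from 1 edgeR quasi-likelihood fit over all 10 libraries, with a gene called at a Benjamini-Hochberg adjusted p of 0.05 over 20681 tested genes. DAL, the gene mutated in dal-2, had 29.5 and 35.7 CPM in dal-2, against 97.9 and 107 CPM in Col-0, and 72.5 and 59.2 CPM in DIF-OX2 on Dex, against 99.5 and 115 CPM in Col-0 on Dex. The 6 green tissue markers (RBCS1A, RBCS3B, LHCB1.3, LHCA1, PSAD1 and RCA) summed to 26120 and 17400 CPM in DIF-OX2 on Dex, with 1792 and 7248 CPM in dal-2, and 51070 to 58760 CPM in the other 6 libraries. In DIF-OX2 on Dex against Col-0 on Dex all 6 had negative log2 fold changes (-1.73 to -1.15, median -1.40), of which 2 passed the test (LHCB1.3 and PSAD1) and 4 had an unadjusted p under 0.05. In dal-2 against Col-0 all 6 were called lower, with a median of -4.10. With only the dal-2 and Col-0 libraries in the edgeR fit, 4 of these calls were lost. Their adjusted p values were 0.0633 for RBCS1A, 0.162 for RCA, 0.0534 for LHCA1 and 0.0987 for RBCS3B. The 12 root markers summed to 126 and 170.6 CPM in DIF-OX2 on Dex, with 76.5 and 59.1 CPM in dal-2, 124.5 and 140.8 CPM in DIF-OX2, 133.2 and 140.7 CPM in Col-0 on Dex, and 129.9 and 117.2 CPM in Col-0, with no marker of either list at 0. Of these root markers, 1 of 12 rose in DIF-OX2 on Dex and 6 of 12 fell in dal-2. Over all tested genes 11.6% were called higher and 10.4% lower in DIF-OX2 on Dex, with 15.9% and 18.0% in dal-2. The part of either list in the results below was not tested. In whole seedlings, fewer cells of a type and less RNA per cell cannot be told apart. The dal-2 libraries stood apart from each other: on the log2(CPM + 0.5) scale, 11 of the 41 tested members lay more than 2-fold apart between them, as did 10.3% of all tested genes. On that scale 0 or 1 tested member did in each of the other groups.

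The family split in both main comparisons, with members moving up and down. In DIF-OX2 on Dex against Col-0 on Dex, 12 members rose and 3 fell among 41 tested, and the phi genes GSTF7 and GSTF6 rose most. Over all genes 22.0% were called in the full fit of that comparison, 11.6% higher and 10.4% lower. Without DIF-OX2 on Dex replicate 2, fewer members and a smaller share of all genes were called. In dal-2 against Col-0, 12 members rose and 12 fell, with GSTF7 and the low-count GSTF3 at the top and the lambda gene GSTL1 at the bottom. GSTF3 passed the filter on low counts only through libraries where it was high, so its place there is description only. Over all genes 33.9% were called there in the full fit, 15.9% higher and 18.0% lower. In a fit of the dal-2 and Col-0 libraries alone, 6 members rose and 6 fell among 40 tested, beside 11.3% of all genes called. With Col-0 replicate 1 left out, the members called and the share of all genes called were both smaller than in the full fit. The median log2 fold change of the tested members was 0.23 in DIF-OX2 on Dex, with -0.15 in dal-2, beside medians of 0.01 and 0.03 over all tested genes. GSTU3 and GSTU11 did not pass the filter on low counts. GSTU11 had 17 counts in DIF-OX2 on Dex and 1 in Col-0 on Dex, a ratio of normalised counts of 16.6 (95% counting interval 2.61 to 696). It had 13 counts in dal-2 and 0 in Col-0, at least 2.42-fold higher when 3 counts are allowed over the Col-0 group. GSTU3 had 4 counts in DIF-OX2 on Dex and 3 in Col-0 on Dex, and 6 in dal-2 and 1 in Col-0.

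**Figure D1:**
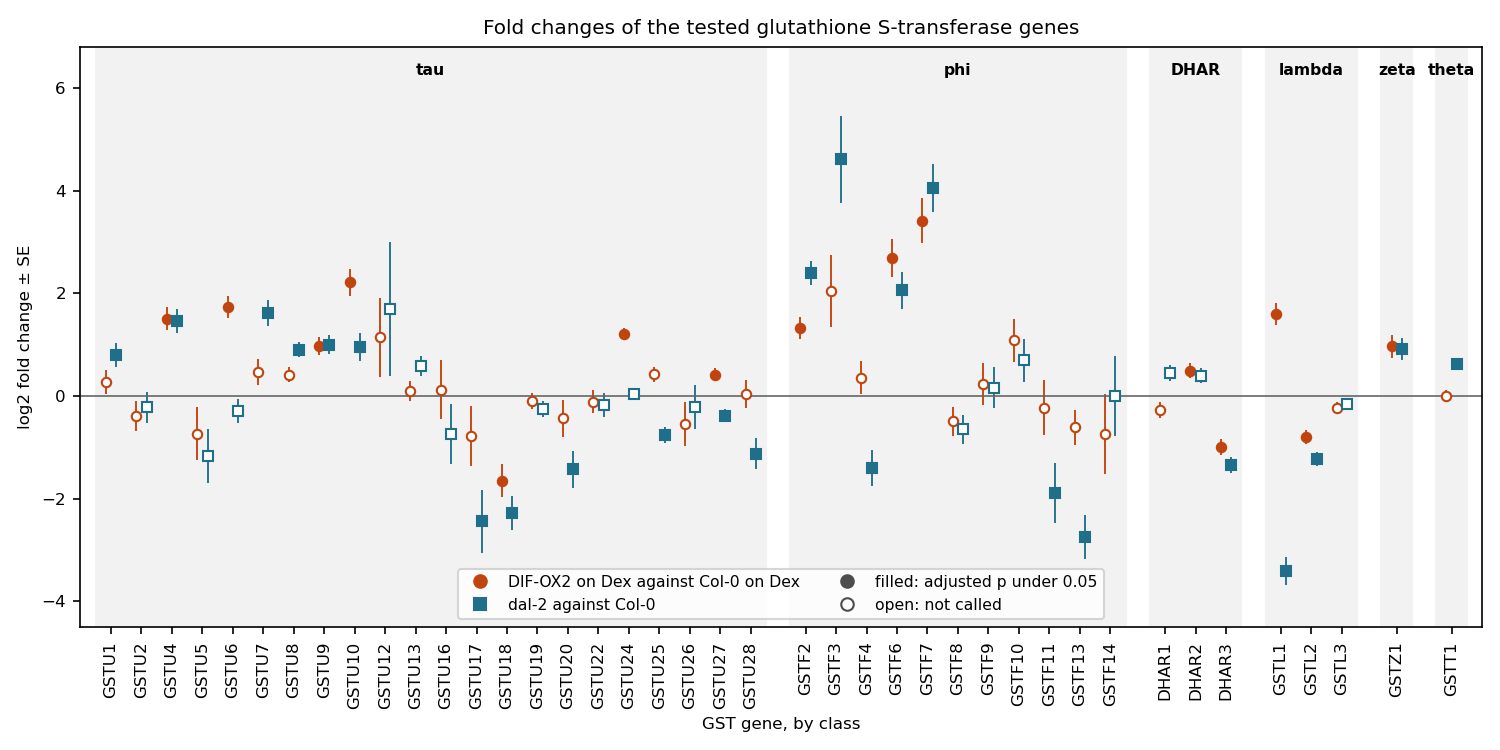
Log2 fold change (points) ± standard error (bars) of the 41 tested genes by class, for DIF-OX2 on Dex against Col-0 on Dex (circles) and dal-2 against Col-0 (squares), with filled symbols for called genes. GSTF7 lies at 3.42 and 4.06, and GSTL1 lies at 1.60 in DIF-OX2 on Dex, with -3.41 in dal-2.

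Set side by side, the calls fell into groups that cut across the classes. Members called higher in both comparisons were GSTU4, GSTU9, GSTU10, GSTF2, GSTF6, GSTF7 and GSTZ1 (7 of 41 tested, beside 5.16% of all tested genes). Those called lower in both were GSTU18, DHAR3 and GSTL2 (3, beside 7.12% of all tested genes). GSTL1 and GSTU27 (2, beside 0.571%) were called higher in DIF-OX2 on Dex and lower in dal-2, and no member showed the opposite, beside 0.295% of genes. GSTU6, GSTU24 and DHAR2 (3, beside 5.91%) were called, higher, in DIF-OX2 on Dex and not in dal-2. Calls in dal-2 without one in DIF-OX2 on Dex went to 5 higher members (GSTU1, GSTU7, GSTU8, GSTF3 and GSTT1) and 7 lower members (GSTU17, GSTU20, GSTU25, GSTU28, GSTF4, GSTF11 and GSTF13), beside 10.4% of genes for each direction. The remaining 14 tested members were called in neither, as were 57.3% of all tested genes. The groups on Dex and those without share no libraries, but a call in one comparison and none in the other does not show a difference, which is tested further on.

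The 250 bases before the annotated gene start were read from the TAIR10.1 genome for all 43 members and searched on both strands for the letters TGACG, the core bound by TGA factors. At least 1 match was present in 16 of 43 members (37.2%), against 5098 of 27443 protein-coding genes (18.6%). Among the classes, 11 of 24 tau windows and 3 of 11 phi windows held one. Windows with 2 or more matches belonged to GSTU1, GSTU7 and GSTU9, 3 of 43 members (7.0%), against 3.2% of all protein-coding genes. These 3 genes were called higher in dal-2, as were 15.9% of all tested genes, and only GSTU9 of them in DIF-OX2 on Dex. How many of all genes with 2 or more matches were called was not counted. By call, a match was present in 4 of 12 members higher in DIF-OX2 on Dex, 0 of 3 lower and 10 of 26 not called. In dal-2 it was present in 5 of 12 higher, 2 of 12 lower and 7 of 17 not called. The windows of those 3 genes are shown because they hold several matches, and those of GSTF7 and GSTL1 because these genes were among those that changed most and their windows held none. Capitals mark each match, and overlapping matches form 1 run of capitals.
GSTU1 (chr2:12632539-12632788, minus strand): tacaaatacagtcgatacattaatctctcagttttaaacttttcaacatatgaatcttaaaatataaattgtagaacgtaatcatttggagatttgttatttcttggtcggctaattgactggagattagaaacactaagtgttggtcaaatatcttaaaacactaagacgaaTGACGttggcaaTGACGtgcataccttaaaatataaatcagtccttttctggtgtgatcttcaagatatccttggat
GSTU7 (chr2:12618900-12619149, minus strand): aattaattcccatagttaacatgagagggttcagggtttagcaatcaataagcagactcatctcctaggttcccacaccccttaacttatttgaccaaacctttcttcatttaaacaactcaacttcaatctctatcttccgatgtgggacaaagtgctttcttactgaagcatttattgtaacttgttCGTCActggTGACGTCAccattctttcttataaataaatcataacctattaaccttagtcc
GSTU9 (chr5:25089627-25089876, minus strand): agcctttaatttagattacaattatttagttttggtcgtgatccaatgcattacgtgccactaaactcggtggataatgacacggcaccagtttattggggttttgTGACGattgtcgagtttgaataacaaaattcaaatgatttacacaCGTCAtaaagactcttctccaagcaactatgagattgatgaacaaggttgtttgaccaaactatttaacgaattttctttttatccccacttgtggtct
GSTF7 (chr1:659981-660230, minus strand): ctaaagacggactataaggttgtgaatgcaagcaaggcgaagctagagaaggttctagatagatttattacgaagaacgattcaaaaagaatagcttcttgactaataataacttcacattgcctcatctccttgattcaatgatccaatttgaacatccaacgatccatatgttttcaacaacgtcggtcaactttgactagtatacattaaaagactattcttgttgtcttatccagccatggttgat
GSTL1 (chr5:630498-630747, plus strand): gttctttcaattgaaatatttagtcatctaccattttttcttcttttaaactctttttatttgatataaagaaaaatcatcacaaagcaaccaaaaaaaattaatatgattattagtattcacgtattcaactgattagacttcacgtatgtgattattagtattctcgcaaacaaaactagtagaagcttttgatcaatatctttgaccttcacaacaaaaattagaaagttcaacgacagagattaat
In GSTU1 the matches began 77 and 65 bases before the gene start. In GSTU7 they began at 61, 52 and 49 bases, the last pair overlapping in 1 palindrome, and in GSTU9 at 144 and 99 bases. Of the GSTU7 window, 92 bases also lie in another annotated locus, AT2G00850. Windows of some members not shown also lie in other annotated genes, with all 250 bases for GSTU10 and GSTU18, 247 for GSTL3 and 231 for GSTU2. Such windows were kept in the counts above. A match is a stretch of letters and not evidence of binding, and no match says only that these letters are absent from this window.

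The phi class held the largest rises. GSTF7 (AT1G02920, chr1:658578-659980), known as a pathogen-responsive gene, had 131 and 209 CPM in DIF-OX2 on Dex, with 205 and 75.9 CPM in dal-2, 7.04 and 6.64 CPM in DIF-OX2, 15.3 and 16.6 CPM in Col-0 on Dex, and 9.02 and 7.87 CPM in Col-0. Every dal-2 and DIF-OX2 on Dex library lay above all others, and the fold was 10.7 in DIF-OX2 on Dex (log2 3.42, SE 0.446, adjusted p = 0.00192) and 16.6 in dal-2 (log2 4.06, SE 0.47, adjusted p = 0.000703). Its neighbour GSTF6 (AT1G02930, chr1:661088-662475), which acts in synthesis of the defence compound camalexin, had 170 and 235 CPM in DIF-OX2 on Dex, with 137 and 60.2 CPM in dal-2, 15.7 and 13.7 CPM in DIF-OX2, 32.9 and 29.8 CPM in Col-0 on Dex, and 27.2 and 20.3 CPM in Col-0. It rose by 2.69 (SE 0.369, adjusted p = 0.0023) in DIF-OX2 on Dex and by 2.06 (SE 0.365, adjusted p = 0.00424) in dal-2, again with no overlap. GSTF6 and GSTF7 are 94.3% identical over the coding sequence, with a longest identical run of 116 bases, so reads can be placed on either gene and their separate values are uncertain. The dal-2 call of GSTF6 was lost with only the libraries of that comparison in the fit (adjusted p = 0.0544).

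GSTF2 and GSTF3 are the other near-identical pair, at 94.5%, though on different chromosomes. GSTF2 (AT4G02520, chr4:1110343-1112033), a protein known to bind indole-type compounds, had 195 and 222 CPM in DIF-OX2 on Dex, with 407 and 251 CPM in dal-2, 55.2 and 59.0 CPM in DIF-OX2, 77.8 and 88.6 CPM in Col-0 on Dex, and 62.3 and 62.7 CPM in Col-0. The groups did not overlap in either comparison, with log2 fold changes of 1.32 (SE 0.217, adjusted p = 0.00471) in DIF-OX2 on Dex and 2.40 (SE 0.225, adjusted p = 0.000316) in dal-2. GSTF3 (AT2G02930, chr2:851156-852321) was near the detection limit outside dal-2: 0.538 and 1.94 CPM in DIF-OX2 on Dex, with 2.59 and 3.22 CPM in dal-2, 0.158 and 0.0874 CPM in DIF-OX2, 0.284 and 0.34 CPM in Col-0 on Dex, and 0 and 0.216 CPM in Col-0. Its counts were 96 in dal-2 and 2 in Col-0, a ratio of normalised counts of 26.8 (95% counting interval 7.22 to 225). The fitted log2 fold change was 4.61 (SE 0.85, adjusted p = 0.00498). GSTF3 passed the filter on low counts through libraries where it was high, with 38 and 58 counts in dal-2. The call is therefore description only. Its value of 2.04 for DIF-OX2 on Dex did not pass (adjusted p = 0.0746). Summed over both genes, the pair rose by 1.33 (adjusted p = 0.00454) in DIF-OX2 on Dex and 2.41 (adjusted p = 0.000303) in dal-2. Of the exon bases of GSTF2, 60.5% lie opposite TOC159, and the strand setting of the counting is not stated. Without replicate 1 of Col-0 on Dex the GSTF2 call in DIF-OX2 on Dex was lost (adjusted p = 0.0527).

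Other phi genes fell in dal-2. GSTF13 (AT3G62760, chr3:23217233-23218312) had 1.61 and 1.52 CPM in DIF-OX2 on Dex, with 0.477 and 0.166 CPM in dal-2, 1.58 and 1.75 CPM in DIF-OX2, 2.46 and 2.31 CPM in Col-0 on Dex, and 2.23 and 2.05 CPM in Col-0. It decreased by 2.75 (log2) in dal-2 (SE 0.423, adjusted p = 0.00231), where both libraries lay below every other. This rested on few counts, 7 and 3 in dal-2 and 20 and 19 in Col-0, and the dal-2 libraries were 2.87-fold apart in CPM. GSTF11 (AT3G03190, chr3:734892-735987), co-expressed with aliphatic glucosinolate genes, had 9.9 and 12.3 CPM in DIF-OX2 on Dex, with 5.38 and 1.55 CPM in dal-2, 13.8 and 8.04 CPM in DIF-OX2, 15.2 and 11.2 CPM in Col-0 on Dex, and 17.6 and 7.65 CPM in Col-0, with a log2 fold change of -1.89 in dal-2 (SE 0.583, adjusted p = 0.0377). Its exons lie wholly (100%) opposite NAC045, and the adjusted p was 0.258 without Col-0 replicate 1, 0.081 without dal-2 replicate 2 and 0.052 to 0.0643 without any 1 of the 6 libraries of the groups outside this comparison. GSTF4 (AT1G02950, chr1:665119-666471) had 3.87 and 8.07 CPM in DIF-OX2 on Dex, with 2.18 and 1.89 CPM in dal-2, 4.51 and 3.85 CPM in DIF-OX2, 4.27 and 5.24 CPM in Col-0 on Dex, and 5.12 and 5.71 CPM in Col-0. It fell by 1.41 in dal-2 (SE 0.351, adjusted p = 0.0168), a call lost without Col-0 replicate 1 (adjusted p = 0.0632) or replicate 2 (adjusted p = 0.0912).

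GSTF8, GSTF9, GSTF10 and GSTF14 were not called in either main comparison, and GSTF9, GSTF10 and GSTF14 split the dal-2 libraries. GSTF9, which together with GSTU19 led the family in level per length in every group, had 668 and 787 CPM in DIF-OX2 on Dex, with 925 and 329 CPM in dal-2, 551 and 416 CPM in DIF-OX2, 612 and 626 CPM in Col-0 on Dex, and 617 and 504 CPM in Col-0. The Col-0 values fell between the dal-2 replicates, and the adjusted p was 0.725 in DIF-OX2 on Dex, with 0.782 in dal-2. GSTF10, which is known to interact with the receptor kinase BAK1, had 363 and 434 CPM in DIF-OX2 on Dex, with 415 and 135 CPM in dal-2, 150 and 149 CPM in DIF-OX2, 180 and 195 CPM in Col-0 on Dex, and 182 and 157 CPM in Col-0. Its values in DIF-OX2 on Dex lay above both libraries of Col-0 on Dex without passing the test (log2 1.09, adjusted p = 0.100). GSTF14 had 60.8 and 5.71 CPM in the dal-2 libraries, 10.6-fold apart, around 33.2 and 33.3 CPM in Col-0. GSTF8, an oxidant- and salicylate-responsive gene, had 212 and 231 CPM in DIF-OX2 on Dex, against 286 and 338 CPM in Col-0 on Dex, and 178 and 351 CPM in dal-2, against 401 and 430 CPM in Col-0, with adjusted p values of 0.242 in DIF-OX2 on Dex, with 0.104 in dal-2.

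**Figure D2:**
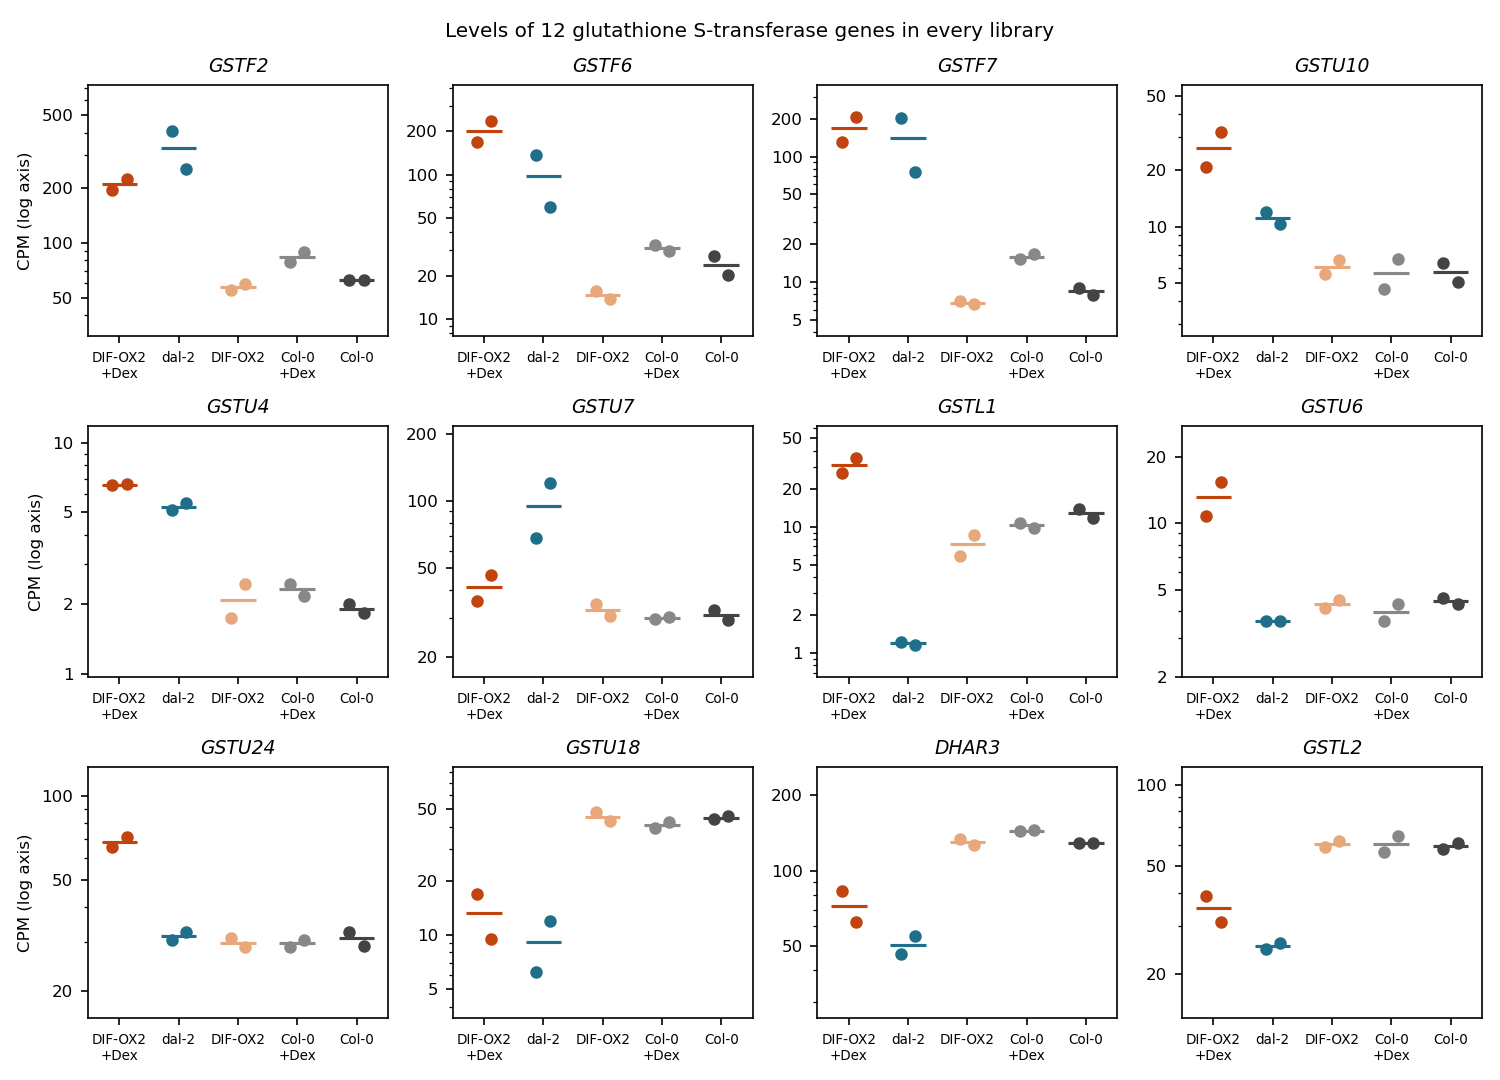
CPM on a log axis in every library for 12 genes, with groups along the horizontal axis, 1 point per library and a line at the group mean. The 4 DIF-OX2 on Dex and dal-2 points lie above the other 6 for GSTF2, GSTF6, GSTF7, GSTU10, GSTU4 and GSTU7, and below them for GSTU18, DHAR3 and GSTL2, while GSTL1 is highest in DIF-OX2 on Dex and lowest in dal-2.

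In the tau class, 6 of 22 tested genes rose and 1 fell in DIF-OX2 on Dex, and 6 rose and 6 fell in dal-2. Over all tested genes 11.6% were called higher and 10.4% lower in DIF-OX2 on Dex, with 15.9% and 18.0% in dal-2. GSTU10 (AT1G74590, chr1:28023627-28024860) had the largest tau rise in DIF-OX2 on Dex. It had 20.9 and 32.0 CPM in DIF-OX2 on Dex, with 11.9 and 10.3 CPM in dal-2, 5.54 and 6.64 CPM in DIF-OX2, 4.65 and 6.67 CPM in Col-0 on Dex, and 6.35 and 5.07 CPM in Col-0. The log2 fold change was 2.22 in DIF-OX2 on Dex (SE 0.265, adjusted p = 0.00139) and 0.96 in dal-2 (SE 0.272, adjusted p = 0.0277), without overlap. GSTU4 (AT2G29460, chr2:12626478-12627891) had 6.57 and 6.61 CPM in DIF-OX2 on Dex, with 5.11 and 5.49 CPM in dal-2, 1.74 and 2.45 CPM in DIF-OX2, 2.46 and 2.18 CPM in Col-0 on Dex, and 2.0 and 1.83 CPM in Col-0, a rise of 1.51 in DIF-OX2 on Dex (SE 0.224, adjusted p = 0.00319) and 1.46 in dal-2 (SE 0.237, adjusted p = 0.00282). GSTU9 (AT5G62480, chr5:25088527-25089626), with a pair of matches in the window printed above, had 15.0 and 18.5 CPM in DIF-OX2 on Dex, with 11 and 13.7 CPM in dal-2, 7.67 and 7.17 CPM in DIF-OX2, 8.15 and 8.99 CPM in Col-0 on Dex, and 6.01 and 6.36 CPM in Col-0. It rose by 0.97 (SE 0.175, adjusted p = 0.00691) in DIF-OX2 on Dex and by 1.0 (SE 0.183, adjusted p = 0.00489) in dal-2. Call losses were seen for GSTU9 in DIF-OX2 on Dex without Col-0 on Dex replicate 1 (adjusted p = 0.0616) or DIF-OX2 on Dex replicate 2 (adjusted p = 0.068), and in dal-2 with only the libraries of that comparison (adjusted p = 0.0572). For GSTU10 in dal-2 they were seen without Col-0 replicate 1 (adjusted p = 0.0631), Col-0 replicate 2 (adjusted p = 0.132) or dal-2 replicate 1 (adjusted p = 0.068), and with only that comparison's libraries (adjusted p = 0.0675).

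GSTU6, GSTU24 and GSTU27 rose in DIF-OX2 on Dex and not in dal-2, and the difference between the effects passed its own test for each. GSTU6 (AT2G29440, chr2:12619630-12621231) had 10.8 and 15.4 CPM in DIF-OX2 on Dex, with 3.61 and 3.61 CPM in dal-2, 4.11 and 4.46 CPM in DIF-OX2, 3.60 and 4.29 CPM in Col-0 on Dex, and 4.56 and 4.31 CPM in Col-0. Both libraries of DIF-OX2 on Dex exceeded every other library (log2 1.73, SE 0.217, adjusted p = 0.00165), although 29.9% of its exon bases lie opposite AT2G29430. GSTU24 (AT1G17170, chr1:5869543-5870883), which with GSTU25 can conjugate the explosive TNT, had 65.7 and 71.1 CPM in DIF-OX2 on Dex, with 30.5 and 32.6 CPM in dal-2, 30.9 and 28.6 CPM in DIF-OX2, 28.7 and 30.5 CPM in Col-0 on Dex, and 32.6 and 29.0 CPM in Col-0. Its rise in DIF-OX2 on Dex was 1.21 (SE 0.116, adjusted p = 0.000548), with dal-2 at 0.04 (SE 0.116, adjusted p = 0.835). GSTU27 changed little, with log2 fold changes of 0.41 in DIF-OX2 on Dex (adjusted p = 0.0436) and -0.38 in dal-2 (adjusted p = 0.042). Those 2 calls failed under other tools, filters or left-out libraries, reaching adjusted p values of 0.264 without Col-0 on Dex replicate 1 and 0.36 without Col-0 replicate 2.

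Among the tau genes called in dal-2 and not in DIF-OX2 on Dex, GSTU7 (AT2G29420, chr2:12617936-12618899) changed most on the high side. It had 35.6 and 46.8 CPM in DIF-OX2 on Dex, with 68.6 and 121 CPM in dal-2, 34.7 and 30.7 CPM in DIF-OX2, 29.8 and 30.3 CPM in Col-0 on Dex, and 32.6 and 29.3 CPM in Col-0, a rise of 1.61 in dal-2 (SE 0.256, adjusted p = 0.00261). GSTU8 and GSTU1 rose in dal-2 by 0.90 (adjusted p = 0.00307) and 0.79 (adjusted p = 0.0338). The GSTU1 call was lost without Col-0 replicate 1 (adjusted p = 0.0773), Col-0 replicate 2 (adjusted p = 0.13) or dal-2 replicate 2 (adjusted p = 0.138). On the low side, GSTU20, an interaction partner of the jasmonate-conjugating enzyme FIN219, had 356 and 296 CPM in DIF-OX2 on Dex, with 193 and 80.1 CPM in dal-2, 346 and 264 CPM in DIF-OX2, 455 and 429 CPM in Col-0 on Dex, and 402 and 334 CPM in Col-0, a log2 fold change of -1.43 in dal-2 (SE 0.363, adjusted p = 0.0184). It was not called without Col-0 replicate 1 (adjusted p = 0.0945) or replicate 2 (adjusted p = 0.0563). GSTU28 at -1.13 (adjusted p = 0.0206) and GSTU25 at -0.76 (adjusted p = 0.00703) also fell, and both calls were lost without Col-0 replicate 1. With only the dal-2 and Col-0 libraries in the edgeR fit, the calls of GSTU1, GSTU20, GSTU28 and GSTU25 were lost. Their adjusted p values in that fit were 0.128, 0.112, 0.109 and 0.0738.

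GSTU17 and GSTU18 are adjacent and share 71 exon bases on the same strand. GSTU18 (AT1G10360, chr1:3395551-3396953) fell in both comparisons, with 16.8 and 9.53 CPM in DIF-OX2 on Dex, with 6.20 and 12.0 CPM in dal-2, 47.9 and 42.8 CPM in DIF-OX2, 39.2 and 42.5 CPM in Col-0 on Dex, and 43.8 and 45.9 CPM in Col-0. The 4 DIF-OX2 on Dex and dal-2 values all lay below the other 6. The log2 fold change was -1.66 in DIF-OX2 on Dex (SE 0.321, adjusted p = 0.00917) and -2.29 in dal-2 (SE 0.326, adjusted p = 0.00169). The call in DIF-OX2 on Dex was lost without its replicate 2 (adjusted p = 0.0796) or without Col-0 on Dex replicate 2 (adjusted p = 0.0555). GSTU17 (AT1G10370, chr1:3396883-3398358), reported to act in light and abscisic acid responses, had 80.1 and 62.7 CPM in DIF-OX2 on Dex, with 11.2 and 46.8 CPM in dal-2, 190 and 107 CPM in DIF-OX2, 125 and 119 CPM in Col-0 on Dex, and 209 and 108 CPM in Col-0. It fell by 2.44 in dal-2 (SE 0.614, adjusted p = 0.0177) and stood at -0.77 in DIF-OX2 on Dex (adjusted p = 0.383). The dal-2 call of GSTU17 was lost without Col-0 replicate 1. It was also lost with only the dal-2 and Col-0 libraries in the edgeR fit (adjusted p = 0.103).

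The lambda genes did not move together. GSTL1 (AT5G02780, chr5:630748-632792) had 26.8 and 35.2 CPM in DIF-OX2 on Dex, with 1.23 and 1.16 CPM in dal-2, 5.85 and 8.66 CPM in DIF-OX2, 10.8 and 9.73 CPM in Col-0 on Dex, and 13.9 and 11.7 CPM in Col-0. DIF-OX2 on Dex lay above and dal-2 below every other library. It rose 3.03-fold in DIF-OX2 on Dex (log2 1.60, SE 0.215, adjusted p = 0.00216) and was 10.7-fold lower in dal-2 (log2 -3.41, SE 0.266, adjusted p = 0.00018). GSTL2 (AT3G55040, chr3:20398538-20400346), which is targeted to the chloroplast, had 39.0 and 31.1 CPM in DIF-OX2 on Dex, with 24.7 and 26.1 CPM in dal-2, 58.9 and 62.3 CPM in DIF-OX2, 56.4 and 65.1 CPM in Col-0 on Dex, and 57.8 and 61.2 CPM in Col-0. It fell by 0.80 in DIF-OX2 on Dex (SE 0.14, adjusted p = 0.00604) and by 1.23 in dal-2 (SE 0.141, adjusted p = 0.000682). The call in DIF-OX2 on Dex was lost without its replicate 2 (adjusted p = 0.0568) or Col-0 on Dex replicate 2 (adjusted p = 0.0524). GSTL3, the most abundant lambda gene per length, had 127 and 116 CPM in DIF-OX2 on Dex, against 141 and 145 CPM in Col-0 on Dex, and 119 and 133 CPM in dal-2, against 138 and 141 CPM in Col-0, and was not called (adjusted p = 0.193 and 0.343).

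Among the dehydroascorbate reductases, which regenerate ascorbate with glutathione, the chloroplast enzyme DHAR3 (AT5G16710, chr5:5483260-5485185) fell in both comparisons. It had 82.7 and 62.2 CPM in DIF-OX2 on Dex, with 46.3 and 55.0 CPM in dal-2, 134 and 127 CPM in DIF-OX2, 144 and 145 CPM in Col-0 on Dex, and 129 and 129 CPM in Col-0. The log2 fold change was -1.0 in DIF-OX2 on Dex (SE 0.158, adjusted p = 0.00406) and -1.35 in dal-2 (SE 0.159, adjusted p = 0.000761), with no overlap. The cytosolic DHAR2 had 36.4 and 46.1 CPM in DIF-OX2 on Dex, against 27.9 and 30.9 CPM in Col-0 on Dex, and rose by 0.49 (adjusted p = 0.0449), a call lost under DESeq2 (adjusted p = 0.0651) and without DIF-OX2 on Dex replicate 2 (adjusted p = 0.306). DHAR1, the most abundant of the 3 per length, had 184 and 196 CPM in DIF-OX2 on Dex, with 278 and 316 CPM in dal-2, 195 and 163 CPM in DIF-OX2, 211 and 251 CPM in Col-0 on Dex, and 234 and 204 CPM in Col-0, and was not called (adjusted p = 0.244 in DIF-OX2 on Dex, with 0.0633 in dal-2). The green tissue markers were also lower in the groups where the chloroplast-targeted DHAR3 and GSTL2 fell.

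GSTZ1, the maleylacetoacetate isomerase of tyrosine breakdown, had 93.2 and 115 CPM in DIF-OX2 on Dex, with 72.2 and 112 CPM in dal-2, 50.0 and 44.9 CPM in DIF-OX2, 53.7 and 53.1 CPM in Col-0 on Dex, and 53.6 and 43.8 CPM in Col-0. It rose by 0.96 (SE 0.215, adjusted p = 0.0158) in DIF-OX2 on Dex and 0.92 (SE 0.216, adjusted p = 0.0137) in dal-2. The call in DIF-OX2 on Dex was lost without its replicate 2 (adjusted p = 0.122) or either library of Col-0 on Dex (adjusted p = 0.093 and 0.0952), and that in dal-2 without Col-0 replicate 2 (adjusted p = 0.0749). GSTT1, a peroxisomal enzyme, had 64.6 and 66.8 CPM in DIF-OX2 on Dex, with 83.4 and 93.7 CPM in dal-2, 62.5 and 61.3 CPM in DIF-OX2, 61.8 and 69.2 CPM in Col-0 on Dex, and 57.7 and 58.1 CPM in Col-0. It rose by 0.61 in dal-2 (SE 0.115, adjusted p = 0.00535) and stood at 0.00 in DIF-OX2 on Dex (SE 0.115, adjusted p = 0.984). With only the dal-2 and Col-0 libraries in the edgeR fit, the dal-2 calls of GSTT1 (adjusted p = 0.0765) and GSTZ1 (adjusted p = 0.0957) were lost.

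Of the 43 members, 24 lie in 8 tandem clusters. Within the chromosome 2 array of GSTU1 to GSTU7 (chr2:12617936-12632538), GSTU4 and GSTU6 rose in DIF-OX2 on Dex, and GSTU1, GSTU4 and GSTU7 rose in dal-2. GSTU5, its member with the most counts in Col-0, had 96.2 and 67.5 CPM in DIF-OX2 on Dex, against 146 and 127 CPM in Col-0 on Dex, and 26.5 and 108 CPM in dal-2, against 161 and 144 CPM in Col-0, without a call (adjusted p = 0.345 and 0.114). Summing the counts of a cluster avoids the question of which summed member a read belongs to. The sums hold members only, and some spans hold other protein-coding genes whose counts are left out. Such genes are AT1G02940 in the span of GSTF4, GSTF6 and GSTF7, and AT1G78360 in that of GSTU19, GSTU20 and GSTU22. The sum of the chromosome 2 array was 171 and 167 CPM in DIF-OX2 on Dex, against 205 and 187 CPM in Col-0 on Dex, and 131 and 280 CPM in dal-2, against 223 and 200 CPM in Col-0, with log2 fold changes of -0.22 (adjusted p = 0.654) and -0.04 (adjusted p = 0.929). The array of GSTF4, GSTF6 and GSTF7 (chr1:658578-666471) gave sums of 305 and 453 CPM in DIF-OX2 on Dex, with 345 and 138 CPM in dal-2, 27.2 and 24.2 CPM in DIF-OX2, 52.4 and 51.7 CPM in Col-0 on Dex, and 41.3 and 33.8 CPM in Col-0. It rose by 2.87 (SE 0.401, adjusted p = 0.00256) in DIF-OX2 on Dex and 2.68 (SE 0.401, adjusted p = 0.00204) in dal-2, and kept these calls under every alternative run.

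The GSTU24 to GSTU26 cluster rose as a sum in DIF-OX2 on Dex (log2 0.71, SE 0.152, adjusted p = 0.0135), with adjusted p values of 0.106 without DIF-OX2 on Dex replicate 2 and 0.102 and 0.0799 without the first or second library of Col-0 on Dex. In dal-2 it stood at -0.27 (adjusted p = 0.198). The GSTU17 and GSTU18 sum fell by 2.41 in dal-2 (SE 0.526, adjusted p = 0.0103), and by 1.96 with an adjusted p of 0.0569 without Col-0 replicate 1. The sum of GSTU19, GSTU20 and GSTU22 had a log2 fold change of -0.62 in dal-2 (SE 0.173, adjusted p = 0.0265), a call lost under upper quartile scaling (adjusted p = 0.0717) and without any 1 of 6 libraries, of Col-0, Col-0 on Dex or DIF-OX2, up to an adjusted p of 0.197. GSTL1 and GSTL3, which adjoin on chromosome 5 and are 75.3% identical in coding sequence, summed to 153 and 152 CPM in DIF-OX2 on Dex, against 152 and 154 CPM in Col-0 on Dex, and 120 and 134 CPM in dal-2, against 152 and 153 CPM in Col-0. That sum was not called in either comparison (adjusted p = 0.983 and 0.105), and GSTL3 supplied most of its counts.

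**Figure D3:**
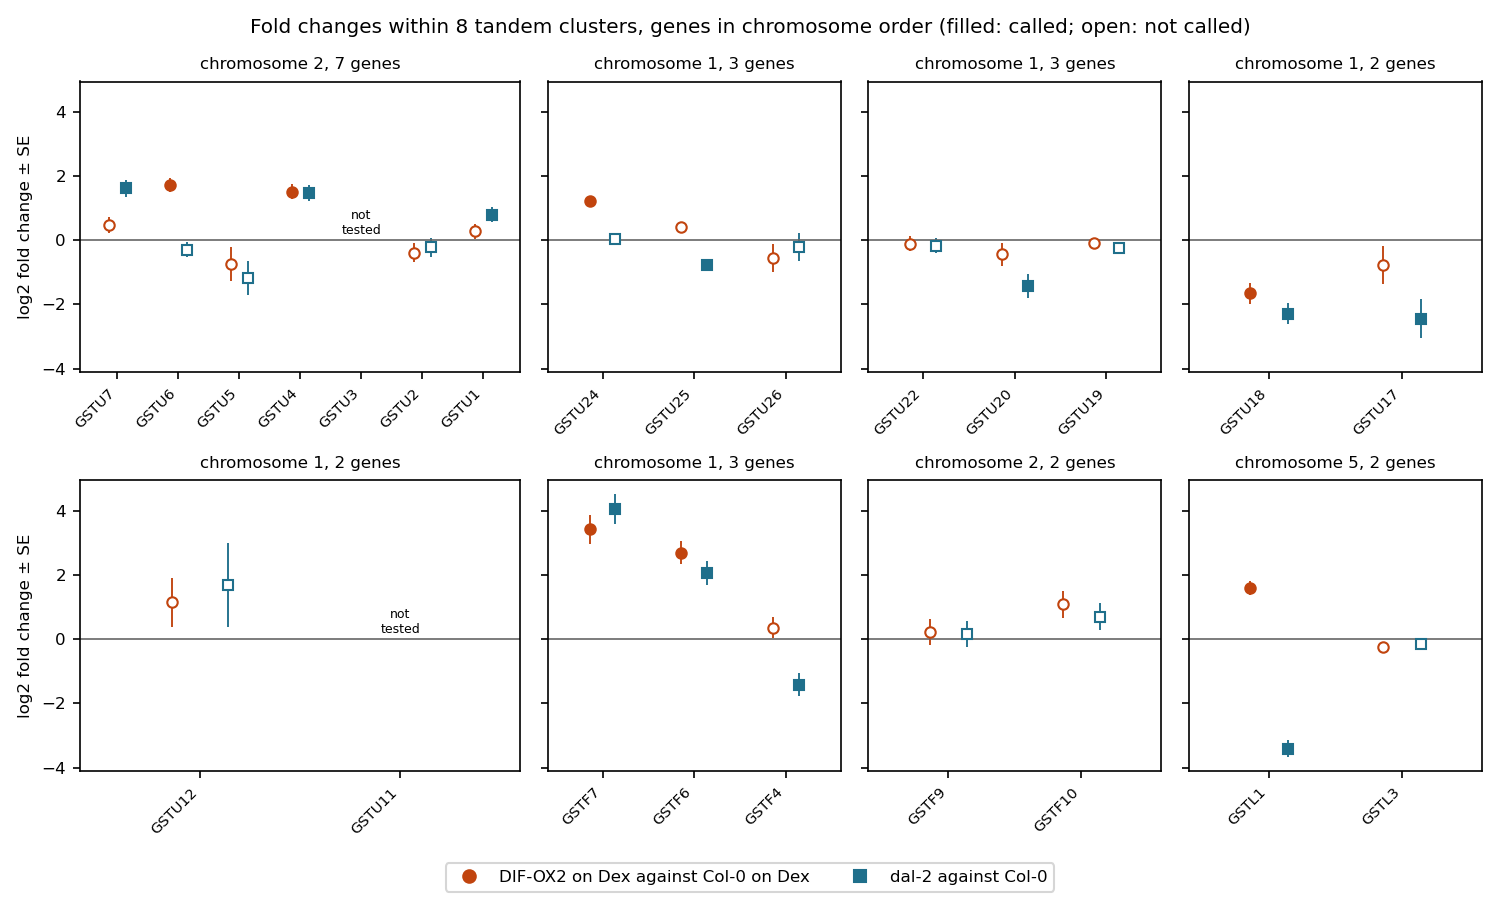
Log2 fold change ± standard error of the members of 8 tandem clusters in chromosome order, for DIF-OX2 on Dex against Col-0 on Dex (circles) and dal-2 against Col-0 (squares), with filled symbols for called genes. Called and uncalled neighbours stand side by side, as for GSTU4 at 1.51 beside GSTU5 at -0.74 in DIF-OX2 on Dex, and GSTL1 at -3.41 beside GSTL3 at -0.15 in dal-2.

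Dex by itself called no member. In Col-0 on Dex against Col-0, edgeR called 0 of 41 members and 0 of all genes (0%), and DESeq2 and limma-voom also called 0 members. At an unadjusted p under 0.05 there were 2 members, GSTU25 with 21.1 and 20.9 CPM in Col-0 on Dex, against 30.6 and 24.3 CPM in Col-0, and GSTU9, whose values stand above. In DIF-OX2 against Col-0, both without Dex, edgeR called 0 members, beside 0.00967% of all genes, and DESeq2 and limma-voom called 0. GSTL1 was the 1 member at an unadjusted p under 0.05, at -0.83 (edgeR quasi-likelihood test, unadjusted p = 0.00602). Within DIF-OX2, 13 members rose and 3 fell on Dex, where 24.3% of all genes were called, 12.7% higher and 11.6% lower. Leaving out DIF-OX2 on Dex replicate 2 lowered both the members called and the share of all genes called, and the falls were among the calls lost. The largest rises there were GSTF7 at 4.64 (SE 0.479, adjusted p = 0.000693), GSTF6 at 3.79 (SE 0.39, adjusted p = 0.000691), GSTF3 at 3.32 (adjusted p = 0.025) and GSTU10 at 2.12 (SE 0.264, adjusted p = 0.00155). GSTF3 rested on 37 counts in DIF-OX2 on Dex and 3 in DIF-OX2, a ratio of 11.5 (95% counting interval 3.65 to 58.4). Because of how it passed the filter on low counts, this call too is description only. The 3 falls were GSTU18 at -1.80, DHAR3 at -0.85 and GSTL2 at -0.79. These values share the DIF-OX2 on Dex libraries with the comparison against Col-0 on Dex.

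The Dex effect in DIF-OX2 differed from that in Col-0 for 9 members, 7 on the high side and 2 on the low side, beside 6.33% of all genes (3.83% higher and 2.50% lower). The differences were 3.72 for GSTF7, 3.38 for GSTF6, 2.42 for GSTL1, 2.12 for GSTU10, 1.78 for GSTU6, 1.45 for GSTF2, 1.26 for GSTU24, -0.82 for GSTL2 and -1.01 for DHAR3. GSTL1 kept this call under all 19 alternatives, whereas the other 8 lost it under some. Without both dal-2 libraries 14 members were called, beside 18.1% of all genes. Fewer members were called without any 1 library of Col-0, Col-0 on Dex or DIF-OX2, or without DIF-OX2 on Dex replicate 2. More were called without either dal-2 library. The share of all genes called moved the same way in each of these fits.

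The dal-2 effect was also set against the DIF-OX2 effect on Dex, each relative to its own Col-0 group. It differed for 5 members, all lower in dal-2, beside 6.07% of all genes (1.89% higher and 4.18% lower). With only the libraries of the comparison in the fit, that count was 3, beside 3.66% of all genes. It also fell without either library of Col-0 on Dex, Col-0 replicate 1, either DIF-OX2 library or DIF-OX2 on Dex replicate 2. It rose without either dal-2 library. The share of all genes called fell and rose with it in these fits. GSTL1 had the largest difference, -5.01 (SE 0.343, adjusted p = 0.000523), and it was called under every alternative run. GSTU6 followed at -2.02 (adjusted p = 0.012), then GSTU25 at -1.18 (adjusted p = 0.0191), GSTU24 at -1.17 (SE 0.164, adjusted p = 0.00793) and GSTU27 at -0.80 (adjusted p = 0.0354). GSTU24 had adjusted p values of 0.06 and 0.0523 without the first or second library of Col-0 on Dex, and GSTU6 had 0.0678 and 0.0578 without them and 0.0612 without Col-0 replicate 1. GSTU25 reached 0.109 and GSTU27 reached 0.178 with a library of Col-0 on Dex left out. Of the 12 members called in dal-2 and not in DIF-OX2 on Dex, only GSTU25 passed this test. The difference was 1.15 for GSTU7 (SE 0.356, adjusted p = 0.0998), 0.61 for GSTT1 (SE 0.163, adjusted p = 0.0662) and -2.14 for GSTF13 (SE 0.548, adjusted p = 0.0596). The age of dal-2 differs from that of all other groups, so this difference cannot be told apart from one of age.

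Per length, as reads per kilobase of exon, scaled to library size with TMM (RPKM), the family was led by GSTF9 and GSTU19 in all 5 groups. GSTF9 had 590 ± 68.4 RPKM in DIF-OX2 on Dex, 508 ± 342 in dal-2, 392 ± 77.5 in DIF-OX2, 502 ± 8.17 in Col-0 on Dex and 454 ± 64.9 in Col-0 (SD, n = 2). GSTU19, a major tau enzyme, had 459 ± 44.3 in DIF-OX2 on Dex, 401 ± 35.4 in dal-2, 447 ± 46.0 in DIF-OX2, 491 ± 5.56 in Col-0 on Dex and 480 ± 45.6 in Col-0. In DIF-OX2 on Dex the mean of GSTF9 lay above that of GSTU19 by more than their SDs, whereas in the other 4 groups the ranges of mean ± SD overlapped, and neither gene was called in a main comparison. GSTF6 stood at 171 ± 39.0 RPKM in DIF-OX2 on Dex, the sixth highest in the family, and GSTF7 at 140 ± 45.4. The phi genes took 45.4% and 50.0% of the counts of the 43 members in DIF-OX2 on Dex, against 34.9% and 36.2% in Col-0 on Dex. In dal-2 they took 57.0% and 37.6%, against 35.3% and 36.3% in Col-0, so that 1 dal-2 library stood far above and 1 near Col-0. The tau share was 37.8% and 34.6% in DIF-OX2 on Dex, against 45.7% and 43.2% in Col-0 on Dex, and 26.7% and 38.1% in dal-2, against 45.9% and 43.5% in Col-0.

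**Figure D4:**
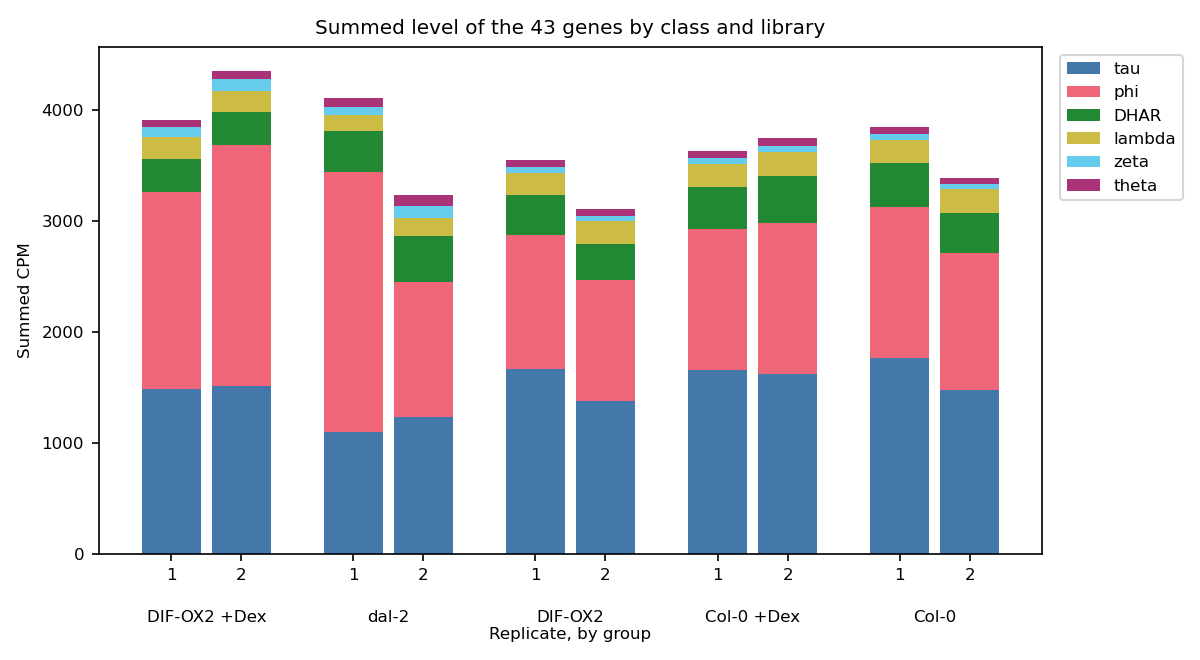
CPM summed over the 43 genes in each library, stacked by class, with the 2 replicates of each group side by side. The total runs from 3101 CPM in DIF-OX2 replicate 2 to 4347 CPM in DIF-OX2 on Dex replicate 2, and the phi segment is 1776 and 2172 CPM in DIF-OX2 on Dex, against 1266 and 1357 CPM in Col-0 on Dex.

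The genes that supply and use glutathione alongside the family were read from lists chosen with earlier results of these data known. Of 9 tested genes of glutathione synthesis, recycling and sulfate assimilation, 1 rose and 1 fell in DIF-OX2 on Dex, and 2 rose and 4 fell in dal-2. Over all tested genes 11.6% were called higher and 10.4% lower in DIF-OX2 on Dex, with 15.9% and 18.0% in dal-2. GSH1, the first enzyme of glutathione synthesis, had 364 and 336 CPM in DIF-OX2 on Dex, against 283 and 285 CPM in Col-0 on Dex (log2 0.30, adjusted p = 0.119), and 359 and 355 CPM in dal-2, against 278 and 273 CPM in Col-0 (log2 0.37, adjusted p = 0.0467). That dal-2 call was lost when any 1 library other than dal-2 replicate 2 was left out, up to an adjusted p of 0.132. GSH2, which completes the tripeptide, had 101 and 108 CPM in DIF-OX2 on Dex, against 72.5 and 77.3 CPM in Col-0 on Dex, and 145 and 119 CPM in dal-2, against 61.7 and 68.3 CPM in Col-0, with rises of 0.48 (adjusted p = 0.0419) and 1.02 (adjusted p = 0.00142). The GSH2 call in DIF-OX2 on Dex was lost with most libraries left out, up to an adjusted p of 0.226. The plastid glutathione reductase GR2 fell by 0.76 in DIF-OX2 on Dex (adjusted p = 0.0448, and 0.26 without replicate 2 of that group) and by 1.74 in dal-2 (adjusted p = 0.00125).

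APS reductases make the sulfite from which cysteine and then glutathione are built. APR1 had 176 and 180 CPM in DIF-OX2 on Dex, against 150 and 120 CPM in Col-0 on Dex, and 34.5 and 16.2 CPM in dal-2, against 215 and 174 CPM in Col-0. APR1 fell by 2.94 in dal-2 (SE 0.342, adjusted p = 0.000711), and APR2 fell by 2.29 (SE 0.22, adjusted p = 0.000342). The dal-2 effect minus the DIF-OX2 effect was -3.34 for APR1 (adjusted p = 0.00762, and 0.0589 without Col-0 on Dex replicate 2) and -2.55 for APR2 (adjusted p = 0.00445).

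Of 3 vacuolar conjugate transporters, 2 rose in DIF-OX2 on Dex and 1 rose in dal-2, beside 11.6% and 15.9% of all tested genes. ABCC3 had 280 and 278 CPM in DIF-OX2 on Dex, with 369 and 329 CPM in dal-2, 65.4 and 65.7 CPM in DIF-OX2, 54.4 and 60.1 CPM in Col-0 on Dex, and 65.2 and 73.0 CPM in Col-0. It rose by 2.29 (SE 0.133, adjusted p = 7.43e-05) in DIF-OX2 on Dex and 2.34 (SE 0.133, adjusted p = 7.74e-05) in dal-2, and was called under every alternative run. ABCC2 had 327 and 319 CPM in DIF-OX2 on Dex, against 159 and 152 CPM in Col-0 on Dex, and 74.4 and 141 CPM in dal-2, against 197 and 171 CPM in Col-0. It rose by 1.05 in DIF-OX2 on Dex (adjusted p = 0.0241, and up to 0.13 with a library of that comparison left out) and stood at -0.77 in dal-2 (adjusted p = 0.0526). ABCC1 was not called, at 0.38 in DIF-OX2 on Dex (adjusted p = 0.186) and 0.26 in dal-2 (adjusted p = 0.32).

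Glutathione peroxidases, which despite the name use mostly thioredoxin in plants, were called in 0 of 7 cases by edgeR in DIF-OX2 on Dex. That stands beside 22.0% of all tested genes, and 3 of the 7 had an unadjusted p under 0.05. In dal-2, 3 of 7 rose, beside 15.9% of all tested genes. GPX3 rose by 1.11 (adjusted p = 0.00309) and GPX6 by 1.52 (adjusted p = 0.0232). The dal-2 libraries of GPX6 held 301 and 114 CPM, and its adjusted p was 0.0702 without dal-2 replicate 1 and 0.12 without Col-0 replicate 2. GPX1, a chloroplast isoform, had 184 and 144 CPM in DIF-OX2 on Dex, against 495 and 550 CPM in Col-0 on Dex, and 66.7 and 383 CPM in dal-2, against 474 and 594 CPM in Col-0, with no overlap and no call (adjusted p = 0.0941 and 0.153). Of 9 detoxification genes often induced with GSTs, 1 rose in DIF-OX2 on Dex, with 2 in dal-2, beside 11.6% and 15.9% of all tested genes. The cytochrome P450 gene CYP81D8 had 13 and 18.8 CPM in DIF-OX2 on Dex, against 2.84 and 3.00 CPM in Col-0 on Dex, and 15.8 and 26.3 CPM in dal-2, against 2.12 and 2.16 CPM in Col-0, with rises of 2.45 (adjusted p = 0.00139) and 3.30 (adjusted p = 0.00033). The glycosyltransferase gene UGT73B5 rose by 1.19 in dal-2 (adjusted p = 0.00231). CYP81D11, another cytochrome P450 gene of that list, which was singled out after its values were seen, had 6.57 and 5.89 CPM in DIF-OX2 on Dex, against 24.9 and 17.7 CPM in Col-0 on Dex, with no overlap and no call (log2 -1.78, adjusted p = 0.135). In dal-2 it had 4.77 and 37.7 CPM, against 28.8 and 17.9 CPM in Col-0 (log2 -0.12, adjusted p = 0.907). OPR1, an oxophytodienoate reductase gene, was at 0.52 in DIF-OX2 on Dex (adjusted p = 0.0695) and 0.28 in dal-2 (adjusted p = 0.243). None of the 4 regulators TGA2, TGA5, TGA6 and SCL14 was called by edgeR in either comparison (0 of 4, beside 22.0% and 33.9% of all tested genes). At an unadjusted p under 0.05 there was 1 in DIF-OX2 on Dex, with 2 in dal-2. TGA2 stood at 0.22 (adjusted p = 0.208) and 0.11 (adjusted p = 0.486).

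The tau genes GSTU2, GSTU5, GSTU12, GSTU13, GSTU16, GSTU19, GSTU22 and GSTU26, the phi genes GSTF8, GSTF9, GSTF10 and GSTF14, and DHAR1 and GSTL3 were called in neither main comparison. GSTU16 had 5.79 and 29.0 CPM in dal-2, 5.01-fold apart, and 37.0 and 21.8 CPM in Col-0. GSTU13 had 83.2 and 53.7 CPM in dal-2, against 44.6 and 46.9 CPM in Col-0, just short of a call (log2 0.58, adjusted p = 0.0502). GSTU12 had 32 counts in DIF-OX2 on Dex and 14 in Col-0 on Dex, and 12 in dal-2 and 2 in Col-0, a ratio of 3.35 for dal-2 with a 95% counting interval from 0.746 to 30.8.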

How the data were processed

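RNA-seq counts of whole Arabidopsis seedlings were deposited for 10 libraries, 2 in each of 5 groups. Per the submitters' processing notes, the authors used Trimmomatic, TopHat2 and HTSeq with the TAIR10 build to make the deposited counts, which are whole reads per gene and not normalised. Libraries were made with an Illumina TruSeq RNA kit, per the labels' protocols. Strand setting, software versions and the treatment of reads that match several genes are not given in the sources used here.

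Groups were taken from the labels. Of 33602 genes, 20681 passed edgeR's filterByExpr (edgeR 4.0.16, R 4.3.3). The main model had 1 coefficient per group, TMM scaling and the quasi-likelihood test, over all 10 libraries (5 residual degrees of freedom), with Benjamini-Hochberg adjustment over all tested genes and calls at 0.05. There were 7 comparisons. The alternatives used DESeq2 1.42.0, limma-voom (limma 3.58.1), other scalings and filters, fewer libraries and a replicate block. The main edgeR steps were also run on simulated counts with the same spread for all genes. That run covered DIF-OX2 on Dex against Col-0 on Dex and Col-0 on Dex against Col-0. It did not cover the dal-2 comparisons or the alternatives. Counting intervals (95%) and the floor of 3 counts cover counting error only. Positions, promoters and coding identities came from RefSeq TAIR10.1, matched by locus for all 43 members (Biopython 1.88). Full values were given for up to 8 members called in each direction in the main comparisons and up to 4 in others, with the most abundant member per class. Members outside that rule were named with the values that place them. The family as a whole (hence its members, listed by locus) and the other gene lists were chosen with earlier results of these data known.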

Additional observations from a re-analysis of the deposited data

Results flagged for a closer look

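For 14 results the effect in one pair of groups differed from the effect in another by a direct test. The Dex effect in DIF-OX2 minus that in Col-0, on the log2 scale, was 3.72 for GSTF7 (edgeR quasi-likelihood, adjusted p = 0.0175), 3.38 for GSTF6 (adjusted p = 0.0122), 2.42 for GSTL1 (adjusted p = 0.0072), 2.12 for GSTU10 (adjusted p = 0.022), 1.78 for GSTU6 (adjusted p = 0.0205), 1.45 for GSTF2 (adjusted p = 0.0332) and 1.26 for GSTU24 (adjusted p = 0.00746). It was -1.01 for DHAR3 (adjusted p = 0.0374) and -0.82 for GSTL2 (adjusted p = 0.0467). The dal-2 effect minus the DIF-OX2 effect on Dex was -5.01 for GSTL1 (adjusted p = 0.000523), -2.02 for GSTU6 (adjusted p = 0.012), -1.18 for GSTU25 (adjusted p = 0.0191), -1.17 for GSTU24 (adjusted p = 0.00793) and -0.80 for GSTU27 (adjusted p = 0.0354). In this second set genotype, age and Dex all differ between the pairs and cannot be told apart.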

How the results depend on the processing

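No called member changed direction under any alternative run. With only the libraries of each comparison in the fit, 12 members were called in dal-2 against Col-0, beside 11.3% of all genes. In the full fit these were 24 and 33.9%. The difference of the Dex effects gave 14 members, beside 18.1% of all genes (9 and 6.33% in the full fit). The dal-2 effect minus the DIF-OX2 effect gave 3, beside 3.66% (5 and 6.07%). The summed clusters called numbered 4 (from 2) in DIF-OX2 on Dex, with 1 (from 3) in dal-2. Without both dal-2 libraries, 14 members were called for the difference of the Dex effects, beside 18.1% of all genes. In DIF-OX2 on Dex against Col-0 on Dex, 5 clusters were called without them. Leaving out 1 library at a time, with a lone library assumed to vary like the other groups, the members called ranged from 9 (without DIF-OX2 on Dex replicate 2) to 21 (without either dal-2 library) in DIF-OX2 on Dex against Col-0 on Dex, from 15 (without Col-0 replicate 1) to 28 (without dal-2 replicate 2) in dal-2 against Col-0, from 9 (without DIF-OX2 on Dex replicate 2) to 22 (without either dal-2 library) in DIF-OX2 on Dex against DIF-OX2, from 1 to 14 for the difference of the Dex effects, and from 1 (without either library of Col-0 on Dex) to 16 (without dal-2 replicate 1) for the dal-2 effect minus the DIF-OX2 effect. Clusters called ranged from 1 to 5 in DIF-OX2 on Dex against Col-0 on Dex (1 without either Col-0 on Dex library or DIF-OX2 on Dex replicate 2, 5 without either dal-2 library) and from 1 to 7 in dal-2 against Col-0 (1 without Col-0 replicate 1, 7 without dal-2 replicate 2). Upper quartile scaling moved the median of all genes in dal-2 against Col-0 to 0.158 on the log2 scale, against 0.03 in the full fit. It gave 15 higher and 10 lower members there, beside 37.3% of all genes called. In the comparisons without a call, Col-0 on Dex against Col-0 and DIF-OX2 against Col-0, every alternative gave 0. The causes were not tested.

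Deviations of same-numbered libraries correlated at 0.343 to 0.54 among DIF-OX2, Col-0 on Dex and Col-0, and at -0.124 to 0.13 for the pairs with DIF-OX2 on Dex or dal-2. Not every pair passed 0.1, so the numbers were not taken as pairs. With a replicate block the members called numbered 15 in DIF-OX2 on Dex against Col-0 on Dex, 24 in dal-2 against Col-0 and 17 in DIF-OX2 on Dex against DIF-OX2. They numbered 8 for the difference of the Dex effects and 5 for the dal-2 effect minus the DIF-OX2 effect. In the same order, the shares of all genes called were 24.2%, 36.2%, 26.4%, 7.37% and 7.34%. The block gave adjusted p values past the threshold for GSTL2 in the difference of the Dex effects (0.0523), GR2 in DIF-OX2 on Dex against Col-0 on Dex (0.056) and GSH1 in dal-2 against Col-0 (0.0543). Calls kept under every alternative that gave a value numbered 8 of 15 in DIF-OX2 on Dex, with 11 of 24 in dal-2. GSTF3 and GSTF13, among those 11, gave no value with at least 5 CPM required in 2 libraries.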
